A study of Mus musculus with 15 samples.

Results

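The Rab genes encode small GTPases that mark the membranes of a cell and direct traffic between them. A Rab protein is switched on by an exchange factor, which loads it with GTP, and then recruits effectors such as tethers, motors and fusion factors. A GTPase-activating protein switches it off, and the inactive, prenylated protein is drawn from the membrane by GDP dissociation inhibitor. Macrophages rely on this system to ingest particles, to mature phagosomes into acidic, degrading compartments, to recycle receptors and to secrete cytokines and enzymes. Many Rab proteins occur as paralogs, close copies that share partners to varying degrees.

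Genes were taken as Rab genes where the symbol was Rab, a number and at most 1 letter and 1 digit, with a summed count of at least 50 over all libraries. Of 16886 genes, 58 had such a symbol and 50 reached that sum. The members just inside the limit were Rab3b (64 counts), Rab30 (67) and Rab44 (70), and the genes just outside it were Rab27b (32 counts), Rab40b (21), Rab33a (14) and Rab26 (14). After a filter on low counts 46 of the 50 were tested. Rab3b, Rab30, Rab36 and Rab44 were not.

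The libraries were made from total RNA of mouse bone macrophages, strain label C57BL6J, kept in culture for 14 days with M-CSF at 20 ng/ml, a growth factor that supports macrophage survival and maturation. WT (wild type), ROBO4_KO (mice lacking the guidance receptor ROBO4) and VLDLR_KO (mice lacking the lipoprotein receptor VLDLR) each had 5 libraries, and all 3 groups shared strain, culture and treatment. The sample codes carried a digit either before the letter B (7 libraries: WT 3 to 5, ROBO4_KO 1 and 2, VLDLR_KO 1 and 2) or after it (8 libraries: WT 1 and 2, ROBO4_KO 3 to 5, VLDLR_KO 3 to 5). What the digit's place stands for is not given in the labels, and it is called the code form here. Genotypes were compared in a model that also held the code form, and for the Rab genes called in VLDLR_KO or ROBO4_KO against WT the changes within each form are given beside those of the model. Neither the knockout design (constitutive or cell-specific) nor whether libraries came from separate animals or cultures is given in the labels, so p-values measure the spread between these libraries, which may be technical.

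Some facts of the whole series bear on the Rab values. Totals ran from 18132866 to 19005966 estimated counts per library. All 8 macrophage markers were present, with summed levels of 10514 to 16752 CPM (counts scaled to a common library total) in WT, 12183 to 14732 in ROBO4_KO and 18404 to 33662 in VLDLR_KO. Of these markers Lyz2 was higher in VLDLR_KO than in WT, and Adgre1, Itgam and Fcgr1 were lower. Lyz2 was on average the largest part of the sums, with means of 7509 CPM in WT, 7788 in ROBO4_KO and 17950 in VLDLR_KO. The dendritic cell list, carried almost wholly by Itgax, summed to 68.8 to 842 CPM in WT, 91.7 to 964 in ROBO4_KO and 749.7 to 2367 in VLDLR_KO, while Flt3, Siglech and Ccr7 were at or near 0. The part of these shifts in the Rab values was not tested. The targeted genes gave few reads: Vldlr had 5 to 36 counts per library in WT, 2 to 38 in ROBO4_KO and 1 to 9 in VLDLR_KO, and Robo4 0 to 4 in WT, 0 in ROBO4_KO and 0 to 1 in VLDLR_KO, which is too little to check the labels. VLDLR_KO 2 stood apart within its genotype, with the highest value for 18 and the lowest for 18 of the 46 tested Rab genes. WT 1 and WT 2 held 3114 and 3476 CPM of immediate-early genes, against 470 to 1131 CPM in the other libraries. In total RNA of a culture, fewer cells of a type and less RNA per cell cannot be told apart.

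Rab7 and Rab5c, both endosomal, were the most abundant Rab genes. Levels of different genes are compared as FPKM, which divides reads by transcript length. Averaged over 15 libraries, Rab7, which drives fusion of late endosomes and phagosomes with lysosomes, led with 388 FPKM and made up 15.1% to 19.7% of the summed FPKM of the 50 genes. It was followed by Rab5c (227 FPKM), a regulator of early endosome fusion, Rab1b (134), which carries cargo from the endoplasmic reticulum to the Golgi, Rab14 (122), found on phagosomes and endosomes, Rab7b (105), which acts between late endosomes and the Golgi, and Rab1a (91.4), the paralog of Rab1b. Rab5c lay below Rab7 in each genotype by more than their spread, with 218 ± 6.19 against 379 ± 44.1 FPKM in WT (mean ± SD, n = 5, also below). Rab1b and Rab14 could not be ordered beyond their spread, with 119.5 ± 9.0 and 116 ± 5.23 FPKM in WT and 150.0 ± 18.3 and 121 ± 19.3 FPKM in VLDLR_KO.

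None of these 6 genes was called between genotypes by edgeR in the model over both code forms. Rab1b alone among them had an unadjusted p under 0.05 there (0.0121, in VLDLR_KO against WT). In VLDLR_KO against WT their log2 fold changes were 0.01 for Rab7, 0.04 for Rab5c, 0.31 for Rab1b, 0.05 for Rab14, 0.07 for Rab7b and 0.00 for Rab1a, with edgeR adjusted p-values of 0.0634 for Rab1b and 0.603 to 0.970 for the others. The summed FPKM of all 50 genes lay at 2145 to 2237 in WT, 2208 to 2344 in ROBO4_KO and 2157 to 2335 in VLDLR_KO, with overlapping ranges. At the low end the gene means of Rab36, Rab30, Rab44 and Rab3b lay between 0.074 and 0.119 FPKM.

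**Figure D1:**
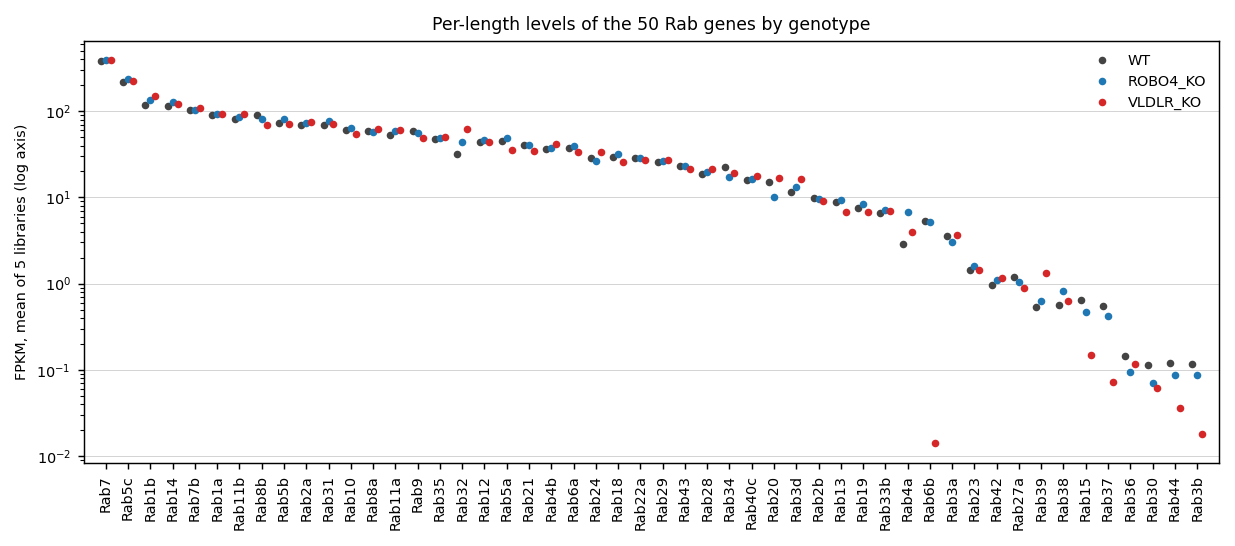
Mean FPKM of the 50 Rab genes (log axis), ordered by their mean over all libraries, with 1 point per genotype and gene (mean of 5 libraries). Rab7 and Rab5c lie at the top in all 3 genotypes, and the VLDLR_KO point of Rab6b lies far below its WT and ROBO4_KO points.

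VLDLR_KO differed from WT in 9 Rab genes. Rab39, Rab32, Rab4a and Rab3d were higher, and Rab6b, Rab37, Rab8b, Rab5a and Rab21 were lower. They sit at different stations of the membrane system, with at most 3 calls in any class of membranes. A gene counts as called where the edgeR quasi-likelihood test gave a Benjamini-Hochberg adjusted p under 0.05 over all 11668 genes tested. The 9 calls were 19.6% of the 46 tested Rab genes, beside 16.8% of all genes tested. The 4 higher were 8.70%, beside 7.74% of all genes, and the 5 lower 10.9%, beside 9.03%, so the share of Rab genes called was near the background. The median log2 fold change was 0.04 over the Rab genes and 0.02 over all genes. Of the 46, 13 had an unadjusted p under 0.05.

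In ROBO4_KO against WT, Rab4a was the 1 Rab gene called, and it was higher. It made up 2.17% of the 46, beside 0.643% of all genes called, 0.343% called higher and 0.300% called lower. Of the 46 Rab genes, 4 had an unadjusted p under 0.05, and the median log2 fold change was 0.04, beside 0.01 over all genes. In VLDLR_KO against ROBO4_KO, 7 were called (15.2%, beside 16.0% of all genes). Rab39, Rab3d and Rab20 were higher, beside 7.57% of all genes, and Rab6b, Rab37, Rab4a and Rab5a were lower, beside 8.44%. The 3 comparisons share libraries with each other, so the same gene appearing in more than 1 of them is not independent.

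**Figure D2:**
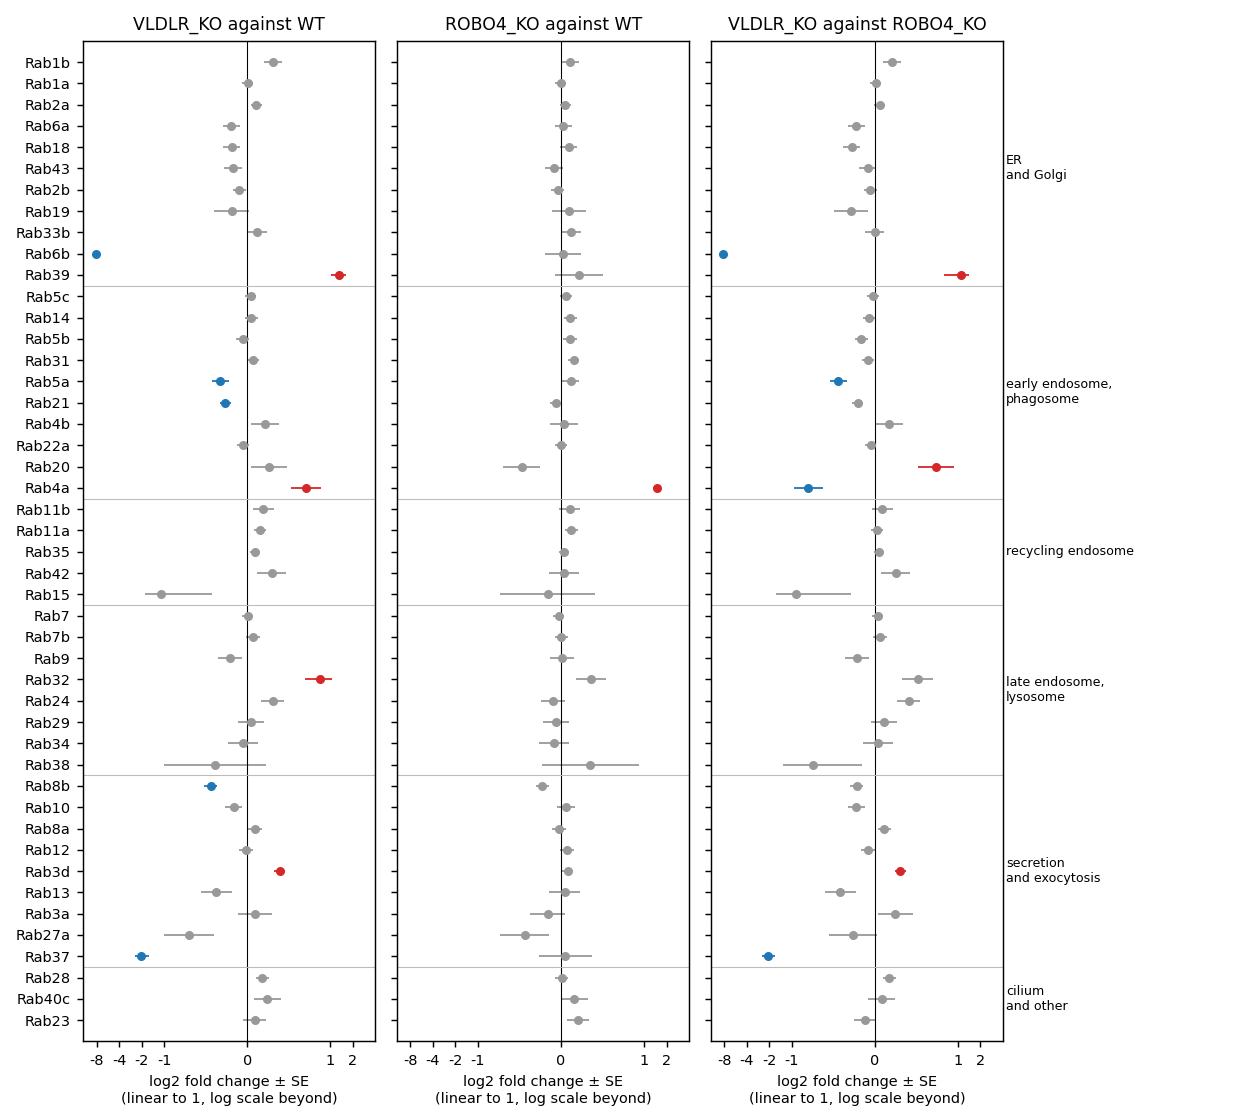
Log2 fold change ± SE of the 46 tested Rab genes in 3 comparisons, ordered by the membrane on which each acts (axis linear to 1, log scale beyond). Red points were called higher, blue points lower, and grey points were not called; the single call in ROBO4_KO against WT is Rab4a.

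Among the 11 tested Rab genes of the endoplasmic reticulum and Golgi, 1 was higher and 1 lower in VLDLR_KO than in WT. Of all genes tested 7.74% were higher and 9.03% lower. Rab6b showed the largest difference of any Rab gene. Rab6 proteins act on the Golgi, where they direct retrograde traffic to the endoplasmic reticulum and the fission and motor-driven movement of secretory vesicles. Rab6a is the broadly expressed form, and Rab6b is best known from neurons. In the deposited annotation (GRCm38) Rab6b (Entrez 270192) lies on chromosome 9 from 103112074 to 103185276 on the plus strand, and Rab6a (Entrez 19346) on chromosome 7 from 100607586 to 100641268 on the plus strand.

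The paralogs differ in the DNA just before their starts, shown to let the pair, of which 1 member was called and the other was not, be compared; the values do not bear on the part of these letters in either level. The stretches are the 250 bases upstream of each gene start in the RefSeq promoter table of GRCm38.p6, chr7:100607336-100607585 for Rab6a and chr9:103111824-103112073 for Rab6b, both on the plus strand and 5′ to 3′. Capitals mark GGGCGG on either strand, the core of a GC box.
Rab6a: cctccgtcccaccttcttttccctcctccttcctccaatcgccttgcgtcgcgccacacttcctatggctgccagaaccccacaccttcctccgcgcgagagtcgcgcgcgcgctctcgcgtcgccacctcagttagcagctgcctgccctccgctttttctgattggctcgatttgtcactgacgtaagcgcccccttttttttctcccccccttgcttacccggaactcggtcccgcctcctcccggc
Rab6b: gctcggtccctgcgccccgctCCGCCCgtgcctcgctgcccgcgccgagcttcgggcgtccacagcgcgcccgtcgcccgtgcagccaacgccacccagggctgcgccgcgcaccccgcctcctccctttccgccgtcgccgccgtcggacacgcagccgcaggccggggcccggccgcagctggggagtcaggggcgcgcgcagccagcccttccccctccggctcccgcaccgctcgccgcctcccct

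The Rab6b stretch held 80.8% G and C, 40 CpG dinucleotides and 1 GGGCGG. The Rab6a stretch held 62.8% G and C, 24 CpG and no GGGCGG. Over 32851 promoters of the table the medians were 52.4% and 6 CpG, and over the 53 promoters of the 41 Rab genes found in it they were 61.6% and 18. GGGCGG or its reverse complement stood in at least 1 promoter of 33 of those 41 Rab genes (80.5%) and of 35.4% of 27025 genes. The 27025 genes are all those of the promoter table, expressed here or not, while the Rab genes had passed a count limit. The medians above and the shares of all motifs thus compare unlike sets, and expressed genes alone were not examined. The other motifs searched on both strands were TATAAA (3 Rab genes, 7.32%, and 14.3% of all genes), CACGTG (5 Rab genes, 12.2%, and 6.86%) and GAGGAA, a core bound by PU.1-type factors (8 Rab genes, 19.5%, and 25.9%). Of these 4 motifs Rab6a's stretch held GAGGAA only and Rab6b's GGGCGG only. A match describes the letters and is no measured binding site.

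Library values below are in the order of replicates 1 to 5, with mean ± SD (n = 5). Rab6b was counted 314, 410, 629, 505 and 403 times in WT and 651, 588, 368, 309 and 300 times in ROBO4_KO, but 5, 0, 1, 0 and 0 times in VLDLR_KO. As CPM these were 17.6, 23.4, 32.7, 26.7 and 21.5 in WT (24.4 ± 5.73), 34.7, 30.4, 20.4, 16.1 and 15.4 in ROBO4_KO (23.4 ± 8.71) and 0.272, 0, 0.0529, 0 and 0 in VLDLR_KO (0.0649 ± 0.118). All 5 VLDLR_KO libraries were thus nearly or entirely without Rab6b reads, and they overlapped with none of the other 10.

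Rab6b fell in VLDLR_KO against WT with a fitted log2 fold change of -8.29 (SE 0.40, edgeR adjusted p = 3.22e-09), and against ROBO4_KO with -8.31 (SE 0.40, edgeR adjusted p = 2.91e-09). With so few reads the ratio of summed counts is the plainer measure. Per total count WT held 373 times as many Rab6b counts as VLDLR_KO, with an exact 95% interval of 171 to 1017 that covers counting error only. Within the code forms the difference stood as well, at 200.4 times (85.7 to 618) with the digit before B, from 1537 against 5 counts, and at 1086 times (194 to 42940) with the digit after B, from 724 against 1. ROBO4_KO and WT overlapped. The authors' deposited table gave log2 fold changes of WT over VLDLR_KO of 7.57 before B (q = 1.35e-24) and 10.04 after B (q = 9.35e-15).

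Nearly all of the Rab6b signal lay in 1 transcript. NM_173781.4 averaged 23.2 ± 5.43 CPM in WT and was at 0 in all 5 VLDLR_KO libraries. The 6 counts left in VLDLR_KO were assigned to the predicted transcript XM_006511737.2, which was too low to test.

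Rab6a was not called in any comparison. Its levels were 117, 124, 107, 114 and 109.6 CPM in WT (114 ± 6.97), 122, 109.7, 129, 123 and 116 in ROBO4_KO (119.8 ± 7.43) and 104, 69.4, 119, 119 and 105 in VLDLR_KO (104 ± 20.3). VLDLR_KO 1, 2 and 5 lay below every WT and ROBO4_KO library, VLDLR_KO 2 by the most, and VLDLR_KO 3 and 4 lay within their ranges. Rab6a gave a log2 fold change of -0.19 in VLDLR_KO against WT (SE 0.10, 95% interval -0.40 to 0.01, edgeR adjusted p = 0.214). Against ROBO4_KO it gave -0.22 (SE 0.10, edgeR unadjusted p = 0.0467, adjusted p = 0.158).

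As a share of the summed Rab6a and Rab6b FPKM, Rab6b made up 9.08%, 11.1%, 17.1%, 13.5% and 11.6% in WT (12.5 ± 3.03), 15.9%, 15.6%, 9.55%, 8.04% and 8.16% in ROBO4_KO (11.5 ± 3.99), and 0.172%, 0%, 0.0245%, 0% and 0% in VLDLR_KO (0.0393 ± 0.0749). Rab6a was therefore the larger part of the pair in every library. VLDLR_KO lay 12.4 percentage points below WT (exact two-sided permutation p = 0.00794, the smallest that 5 against 5 allow; adjusted over 3 comparisons 0.0119). With almost no Rab6b reads in VLDLR_KO, no other p was possible, so this restates the Rab6b difference and is no second result. The permutation did not hold the code form. ROBO4_KO lay 1.02 points below WT (exact permutation p = 0.635). Within the forms VLDLR_KO was 14.0 points lower before B and 10.1 points lower after B, each with an exact permutation p of 0.2, the smallest possible at those sizes. When the counts of the pair were summed, the sum fell in VLDLR_KO against WT by 0.45 on the log2 scale (SE 0.12, edgeR adjusted p = 0.0158).

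**Figure D3:**
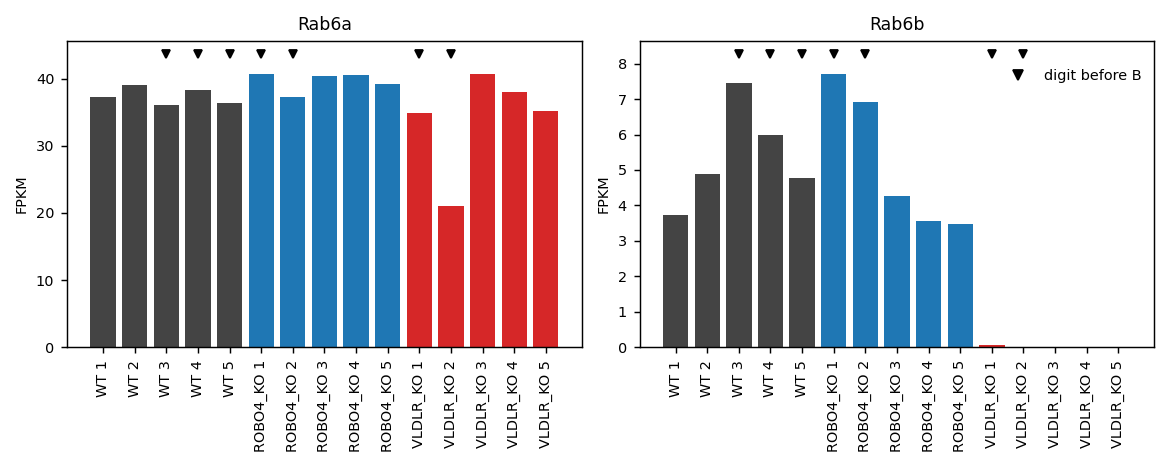
FPKM of Rab6a and Rab6b in each of the 15 libraries (bars), with triangles over the libraries whose code has the digit before B. Rab6b is visible in all WT and ROBO4_KO libraries and is at or near 0 in all 5 VLDLR_KO libraries, while Rab6a is lowest in VLDLR_KO 2.

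Rab39, a GTPase linked to the Golgi, endosomes and autophagy, went the other way. It lies on chromosome 9 from 53684081 to 53706232 on the minus strand. Rab39 stood at 1.29, 1.37, 1.197, 2.06 and 1.55 CPM in WT (1.49 ± 0.344), at 1.81, 2.17, 0.833, 2.03 and 1.79 in ROBO4_KO (1.73 ± 0.525) and at 3.53, 2.38, 5.76, 3.46 and 3.55 in VLDLR_KO (3.74 ± 1.23). Every VLDLR_KO library exceeded every WT and ROBO4_KO library.

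Rab39 rose in VLDLR_KO against WT by a log2 fold change of 1.33 (SE 0.29, edgeR adjusted p = 0.00617) and against ROBO4_KO by 1.11 (SE 0.28, edgeR adjusted p = 0.0149). The change against WT was 0.88 before B (adjusted p = 0.0820) and 1.68 after B (adjusted p = 0.0135). Without WT 1 and WT 2 it was 1.16 and no longer called (adjusted p = 0.0811). Its paralog Rab39b had 8 counts in all libraries together. Rab1b, with 231, 199.6, 186, 182 and 201 CPM in WT and 203, 309, 225, 263 and 267 in VLDLR_KO, was not called over both forms (0.31, edgeR adjusted p = 0.0634), although DESeq2 gave it an adjusted p of 0.0342. Within forms Rab1b was higher by 0.43 before B (edgeR adjusted p = 0.0358), where the genotypes did not overlap, and gave 0.23 after B (edgeR adjusted p = 0.339).

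Early endosome and phagosome Rab genes gave 3 calls among 10 in VLDLR_KO against WT, beside 16.8% of all genes. Rab4a was higher, and Rab5a and Rab21 were lower. Rab4a (chromosome 8 from 123805846 to 123836721, plus strand) returns receptors from early endosomes to the surface by a fast route. Rab4a stood at 2.01, 1.71, 5.10, 4.55 and 4.37 CPM in WT (3.55 ± 1.57), at 10.7, 9.37, 7.55, 6.31 and 8.04 in ROBO4_KO (8.40 ± 1.70) and at 5.43, 8.50, 3.70, 4.07 and 3.44 in VLDLR_KO (5.03 ± 2.09). All ROBO4_KO libraries lay above all WT libraries. VLDLR_KO overlapped with both, but within each code form it lay above WT, which itself was lower with the digit after B.

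Rab4a rose in ROBO4_KO against WT by a log2 fold change of 1.51 (SE 0.18, edgeR adjusted p = 4.72e-04). Within forms the change was 1.10 before B (adjusted p = 0.0310) and 1.97 after B (adjusted p = 2.60e-04). The authors' deposited table has it in the same direction in both forms, with log2 fold changes of WT over ROBO4_KO of -1.11 (q = 8.72e-04) and -1.97 (q = 3.47e-08). Without the code form in the model the change was 1.24 and not called (adjusted p = 0.281), and a fit on the libraries with the digit before B alone gave 1.10 with an adjusted p of 0.258.

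In VLDLR_KO against WT, Rab4a rose by 0.71 (SE 0.18, edgeR adjusted p = 0.0156), with 0.57 before B (adjusted p = 0.0425) and 1.001 after B (adjusted p = 0.011). That call was lost without the code form in the model (0.50, adjusted p = 0.375), without WT 1 and WT 2 (0.45, adjusted p = 0.168), without WT 2 alone (adjusted p = 0.0515) and without VLDLR_KO 2 (adjusted p = 0.0504). Between the knockouts Rab4a was lower in VLDLR_KO, by -0.80 (SE 0.17, edgeR adjusted p = 0.00631). Within forms this was -0.53 before B (adjusted p = 0.0779) and -0.96 after B (adjusted p = 0.00362). The call between the knockouts was lost without the code form in the model and in the libraries before B alone (adjusted p up to 0.187).

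Rab4b, the paralog, was the more abundant of the pair in FPKM and was not called. It measured 41.7, 32.6, 37.9, 32.4 and 40.2 CPM in WT (37.0 ± 4.28), 30.8, 36.5, 38.8, 41.7 and 39.2 in ROBO4_KO (37.4 ± 4.13) and 36.5, 67.0, 34.7, 36.6 and 37.9 in VLDLR_KO (42.6 ± 13.7). A single library, VLDLR_KO 2, stood out, and the other 14 overlapped. With both genes summed, the change in VLDLR_KO against WT was 0.25 (edgeR adjusted p = 0.274) and in ROBO4_KO against WT 0.22 (edgeR adjusted p = 1), so the sum did not pass the test in either.

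Rab5a and Rab21 were lower in VLDLR_KO. Rab5a (chromosome 17 from 53479234 to 53507678, plus strand) drives homotypic fusion of early endosomes. Rab5a stood at 95.9, 104, 92.7, 99.7 and 99.5 CPM in WT (98.5 ± 4.43), at 114, 111, 116, 100.2 and 92.3 in ROBO4_KO (107 ± 10.01) and at 94.8, 61.6, 75.6, 84.9 and 75.2 in VLDLR_KO (78.4 ± 12.4). Of the VLDLR_KO libraries 4 lay below all WT libraries, and VLDLR_KO 1 lay within their range.

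Against WT, Rab5a fell by 0.32 on the log2 scale (SE 0.10, edgeR adjusted p = 0.0462), with -0.31 before B (adjusted p = 0.123) and -0.35 after B (adjusted p = 0.139). This call was lost when any 1 of 12 of the 15 libraries was left out (adjusted p = 0.0516 to 0.125). Those were WT 1 to 5, ROBO4_KO 1 to 4 and VLDLR_KO 2, 3 and 5. Against ROBO4_KO it fell by 0.44 (SE 0.10, edgeR adjusted p = 0.00936), a call kept whichever library was left out. The paralogs Rab5b and Rab5c were not called against WT (-0.06 and 0.04, edgeR adjusted p = 0.669 and 0.731), nor were the sums of Rab5a with Rab5b (-0.13, adjusted p = 0.311) or with Rab5c (-0.03, adjusted p = 0.783).

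Rab21 (chromosome 10 from 115288064 to 115315899, minus strand) is known for endosomal traffic of integrins. Rab21 stood at 69.3, 69.9, 67.5, 65.2 and 66.6 CPM in WT (67.7 ± 1.93), at 66.2, 61.7, 71.4, 67.3 and 65.7 in ROBO4_KO (66.4 ± 3.48) and at 53.3, 47.4, 64.3, 63.6 and 61.1 in VLDLR_KO (57.9 ± 7.32). WT and VLDLR_KO did not overlap, but the gap was small for the VLDLR_KO libraries with the digit after B. Rab21 fell in VLDLR_KO against WT by 0.26 (SE 0.07, edgeR adjusted p = 0.0154), with -0.40 before B (adjusted p = 0.00303) and -0.14 after B (adjusted p = 0.258), and the call was lost without the code form in the model (adjusted p = 0.108).

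Rab20 (chromosome 8 from 11453513 to 11478499, minus strand), which takes part in phagosome maturation, was called between the knockouts and not in VLDLR_KO against WT (0.26, edgeR adjusted p = 0.428). Rab20 stood at 13.0, 11.9, 12.6, 11.1 and 17.3 CPM in WT (13.2 ± 2.42), at 13.3, 11.96, 5.55, 7.45 and 7.12 in ROBO4_KO (9.08 ± 3.36) and at 20.5, 29.9, 10.9, 8.48 and 9.43 in VLDLR_KO (15.8 ± 9.21). Both knockouts had their higher values in the libraries with the digit before B. VLDLR_KO exceeded ROBO4_KO by 0.74 (SE 0.22, edgeR adjusted p = 0.0354). The call was lost when any of ROBO4_KO 1 to 5, VLDLR_KO 1 or VLDLR_KO 2 was left out (adjusted p = 0.0529 to 0.0809).

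Late endosome and lysosome Rab genes gave 1 call among 8 in VLDLR_KO against WT, beside 16.8% of all genes. It was Rab32, which was higher. Rab32 (chromosome 10 from 10545039 to 10558207, minus strand) and its paralog Rab38 build lysosome-related organelles such as melanosomes, and Rab32 acts in host defence against intracellular bacteria. Rab32 stood at 67.4, 55.6, 55.7, 55.0 and 67.9 CPM in WT (60.3 ± 6.67), at 83.8, 70.7, 63.1, 79.0 and 107 in ROBO4_KO (80.8 ± 16.8) and at 89.8, 81.9, 170.4, 94.97 and 149.9 in VLDLR_KO (117 ± 39.97). Every VLDLR_KO library lay above every WT library, VLDLR_KO 3 and 5 by the most. ROBO4_KO overlapped with both groups.

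Rab32 rose in VLDLR_KO against WT by 0.88 (SE 0.19, edgeR adjusted p = 0.00539), with 0.53 before B (adjusted p = 0.0999) and 1.17 after B (adjusted p = 0.00703). Without WT 1 and WT 2 the change was 0.72 and not called (adjusted p = 0.0811). Against ROBO4_KO the difference was 0.51 and did not pass the test (edgeR adjusted p = 0.0688). Rab38 averaged 0.803 ± 0.447 CPM in WT and 0.872 ± 0.80 in VLDLR_KO, was not called over both forms (-0.38, edgeR adjusted p = 0.702), and contributed little to the sum of the pair, which rose by 0.87 (SE 0.19, edgeR adjusted p = 0.00577). Within forms Rab38 fell by 3.03 before B (edgeR adjusted p = 0.0385), from 0.212 to 0.729 CPM in WT 3 to 5 to 0.109 and 0 in VLDLR_KO 1 and 2, and gave 0.19 after B (edgeR adjusted p = 0.864).

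Secretory Rab genes gave 3 calls among 9 tested in VLDLR_KO against WT, beside 16.8% of all genes. Rab3d was higher, and Rab8b and Rab37 were lower. Rab3d (chromosome 9 from 21906950 to 21918183, minus strand) sits on secretory granules and vesicles and serves regulated exocytosis. Rab3d stood at 48.9, 46.9, 37.6, 39.5 and 39.0 CPM in WT (42.4 ± 5.14), at 40.2, 40.6, 52.0, 51.5 and 52.9 in ROBO4_KO (47.4 ± 6.45) and at 49.1, 44.4, 66.2, 67.3 and 69.0 in VLDLR_KO (59.2 ± 11.5). All 3 genotypes had their higher values with the digit after B. Within each form VLDLR_KO lay above WT without overlap, whereas over all libraries the groups overlapped.

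Rab3d rose in VLDLR_KO against WT by 0.39 (SE 0.06, edgeR adjusted p = 5.82e-04), with 0.27 before B (adjusted p = 0.0168) and 0.49 after B (adjusted p = 9.36e-04). Against ROBO4_KO it rose by 0.31 (SE 0.06, edgeR adjusted p = 0.00313), a call lost without the code form in the model (0.32, adjusted p = 0.187). The neuronal paralog Rab3a averaged 4.56 ± 0.614 CPM in WT and 4.74 ± 1.92 in VLDLR_KO, with no call (0.09, edgeR adjusted p = 0.797). The sum of the pair rose by 0.37 against WT (edgeR adjusted p = 3.18e-04).

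Rab8b (chromosome 9 from 66843664 to 66919705, minus strand) and Rab8a carry vesicles from the Golgi and recycling endosomes to the surface. Rab8b stood at 439.6, 486, 383, 405 and 384 CPM in WT (419 ± 43.6), at 367, 327, 418, 378 and 354 in ROBO4_KO (369 ± 33.5) and at 307, 259, 331, 371 and 323 in VLDLR_KO (318 ± 40.9). All VLDLR_KO libraries lay below all WT libraries, and ROBO4_KO lay between and overlapped with both.

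Rab8b fell in VLDLR_KO against WT by 0.44 (SE 0.08, edgeR adjusted p = 0.00122), with nearly equal changes of -0.46 before B (adjusted p = 0.00716) and -0.44 after B (adjusted p = 0.0173). Like Rab6b, it kept its call in every alternative that was run for it. Rab8a measured 107, 105, 105, 104 and 119.8 CPM in WT (108 ± 6.53) and 109, 141, 109, 111 and 104 in VLDLR_KO (115 ± 14.9), and it was not called (0.09, adjusted p = 0.464). The sum of Rab8a and Rab8b fell by 0.31 (SE 0.06, edgeR adjusted p = 0.00349).

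Rab37 (chromosome 11 from 115091204 to 115162773, plus strand) is a secretory granule GTPase first described in mast cells. Rab37 stood at 0.224, 0.171, 1.61, 1.90 and 1.65 CPM in WT (1.11 ± 0.843), at 1.33, 2.12, 0.167, 0.365 and 0.256 in ROBO4_KO (0.848 ± 0.853) and at 0.272, 0.238, 0.211, 0.0558 and 0.0530 in VLDLR_KO (0.166 ± 0.104). It was high in the 5 WT and ROBO4_KO libraries with the digit before B and low in all others, VLDLR_KO 1 and 2 included.

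Rab37 fell in VLDLR_KO against WT by 2.05 (SE 0.43, edgeR adjusted p = 0.00475), with -2.72 before B (adjusted p = 0.0011) and -0.84 after B (adjusted p = 0.499), and against ROBO4_KO by 2.10 (SE 0.43, edgeR adjusted p = 0.00414). Without the code form in the model neither call remained (adjusted p = 0.0628 and 0.123). Kit, the receptor of mast cells and progenitors, was highest in the same 5 libraries, with 22.3, 27.5 and 21.1 CPM in WT 3 to 5 and 37.1 and 24.4 in ROBO4_KO 1 and 2, against 0.558 to 4.24 CPM elsewhere. Of the mast cell and basophil list 6 of 8 genes were in the table, with sums of 2.96 to 27.6 CPM in WT, 1.56 to 37.4 in ROBO4_KO and 1.95 to 4.29 in VLDLR_KO. Kit was the larger part of these sums except in VLDLR_KO 4 and 5, where Gata2, with 1.39 and 1.69 CPM, was larger than Kit (0.558 and 0.741). The defining granule and receptor genes were at or near 0, with 4 counts of Cpa3, 9 of Mcpt8 and 1 of Ms4a2 over all libraries. Whether such cells were present, and their part in the Rab37 values, was not tested.

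**Figure D4:**
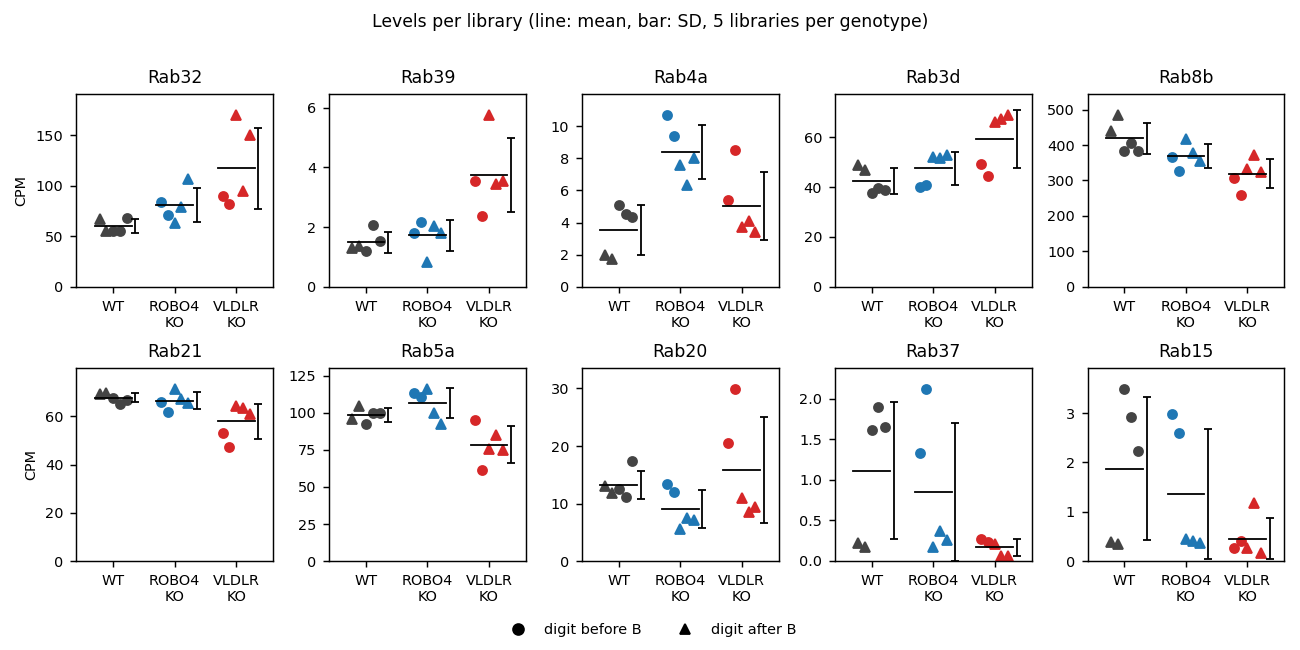
CPM of 10 Rab genes in each library, by genotype, with circles for the digit before B and triangles for the digit after B. Lines show the mean and bars the SD of 5 libraries. Each axis starts at 0, except that of Rab37, which starts just below 0. Rab32, Rab39, Rab8b and Rab21 do not overlap between VLDLR_KO and WT, and Rab37 and Rab15 are highest in the WT and ROBO4_KO circles.

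Over both forms, no recycling endosome gene (5 tested) and none of the 3 grouped under cilium and other functions was called in VLDLR_KO against WT. None of either class was called over both forms in ROBO4_KO against WT or in VLDLR_KO against ROBO4_KO by edgeR. At an unadjusted p under 0.05 there were 1, 0 and 1 of these genes, in both cases Rab28. Recycling endosomes return internalised receptors to the surface under Rab11 control. Even so, some of these genes were called within 1 code form in VLDLR_KO against WT. Rab35 was higher before B (0.20, edgeR adjusted p = 0.0395) and Rab11a after B (0.30, edgeR adjusted p = 0.0443). Rab11b, Rab40c and Rab15, given below, were called before B. Of all genes, 33.3% were called before B and 14.2% after B. For 6 of the 46 Rab genes (13.0%, beside 15.2% of all genes) the VLDLR_KO against WT difference itself differed between forms. Rab11b, Rab40c, Rab20 and Rab34 were estimated higher in VLDLR_KO before B and lower after B. Rab9 did so too, and Rab15 showed the reverse order.

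Rab11b stood at 180.0, 172, 155, 154 and 157 CPM in WT (164 ± 11.6) and at 196, 258, 153, 178 and 148 in VLDLR_KO (187 ± 44.5). Both VLDLR_KO libraries with the digit before B exceeded every WT library. Its change was 0.55 before B (adjusted p = 0.00309) and -0.14 after B (adjusted p = 0.451), a difference of 0.69 (SE 0.16, edgeR adjusted p = 0.0143). Rab40c, which recruits a ubiquitin ligase, stood at 33.2, 32.6, 37.6, 33.2 and 44.2 CPM in WT and at 49.99, 71.6, 26.7, 31.2 and 29.6 in VLDLR_KO. Again VLDLR_KO 1 and 2 were above all WT libraries and VLDLR_KO 3 to 5 below them. Rab40c's changes were 0.66 (adjusted p = 0.00537) and -0.17 (adjusted p = 0.496), with a difference of 0.84 (SE 0.21, edgeR adjusted p = 0.0220).

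For Rab20 the changes were 0.88 before B (adjusted p = 0.00705) and -0.38 after B (adjusted p = 0.273), with a difference of 1.26 (SE 0.30, edgeR adjusted p = 0.0165). Rab34, which positions lysosomes and serves cilium formation, measured 17.2, 12.7, 35.1, 31.0 and 40.9 CPM in WT and 36.7, 55.7, 10.9, 10.3 and 10.9 in VLDLR_KO, so that in both genotypes the libraries with the digit before B were the high ones. Its difference between forms was 0.86 (SE 0.27, edgeR adjusted p = 0.0459), from 0.37 and -0.48, neither called. Rab9, which returns receptors from late endosomes to the Golgi, measured 58.3, 61.9, 65.2, 67.6 and 73.3 CPM in WT and 73.1, 80.8, 33.2, 46.2 and 42.2 in VLDLR_KO. VLDLR_KO 3 to 5 lay below every WT library. Rab9's changes were 0.16 (adjusted p = 0.411) and -0.57 (adjusted p = 0.0227), with a difference of 0.73 (SE 0.21, edgeR adjusted p = 0.0349).

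Rab15, which acts on early and recycling endosomes, stood at 0.391, 0.342, 3.49, 2.91 and 2.24 CPM in WT (1.87 ± 1.44), at 2.98, 2.59, 0.444, 0.417 and 0.358 in ROBO4_KO (1.36 ± 1.31) and at 0.272, 0.416, 0.264, 1.17 and 0.159 in VLDLR_KO (0.456 ± 0.41). It was high in the same 5 WT and ROBO4_KO libraries as Rab37 and Kit. Rab15's changes were -3.05 before B (adjusted p = 0.00287) and 0.51 after B (adjusted p = 0.669), with a difference of -3.56 (SE 0.90, edgeR adjusted p = 0.0220). Over both forms it was not called (-1.11, adjusted p = 0.283).

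These differences rest on few libraries, and without WT 1, WT 2 or VLDLR_KO 2 a group within a form holds 1 library, which the fit assumes to vary like the others. The call for Rab11b was lost without WT 1 (adjusted p = 0.0627), that for Rab15 without WT 1 or WT 2 (0.0735 and 0.0869), and that for Rab20 without WT 1, WT 2 or VLDLR_KO 2 (0.0509 to 0.0666). For Rab40c it was lost without WT 1, 2 or 4 or VLDLR_KO 2 or 3 (0.0504 to 0.0760), for Rab9 without any of 8 libraries (0.0517 to 0.119) and for Rab34 without any of 12 (0.0537 to 0.203).

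Changes within forms come from a model with 1 coefficient per genotype and form, fitted on all 15 libraries. For VLDLR_KO against WT it gave 16 Rab calls before B (34.8%, beside 33.3% of all genes) and 9 after B (19.6%, beside 14.2%). A separate fit on the libraries before B alone called 10 Rab genes, beside 1190 genes higher and 1252 lower of 11894. After B alone it was 8, beside 791 genes higher and 1048 lower of 11744. The forms themselves differed, too. The model of genotype plus code form fits 1 form effect for all genotypes, and a single genotype can depart from it. Rab15 did so in VLDLR_KO, with 0.344 CPM before B and 0.531 after B. The form effect was called for 17 Rab genes (37.0%, beside 38.1% of all genes). The 9 that were higher before B included Rab37 (2.50), Rab15 (1.91), Rab34 (1.54), Rab4a (0.87), Rab20 (0.81) and Rab6b (0.70). The 8 that were lower included Rab38 (-1.52), Rab27a (-0.72), which docks lysosome-related granules at the membrane, Rab3d (-0.40) and Rab7 (-0.28).

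**Figure D5:**
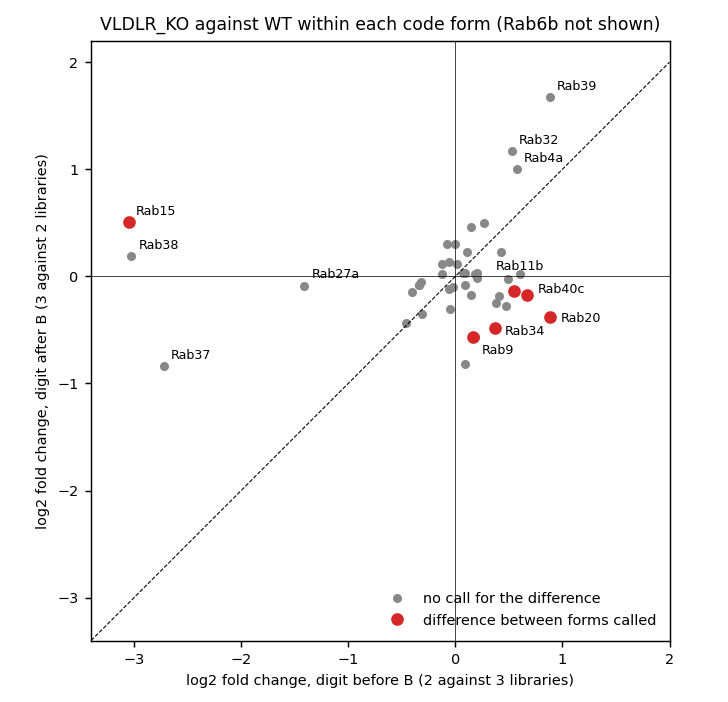
Log2 fold change of VLDLR_KO against WT in libraries with the digit before B (x axis, 2 against 3 libraries) and after B (y axis, 3 against 2) for the tested Rab genes except Rab6b; the dashed line marks equal changes. The 6 red genes, whose difference between forms was called, lie off the line, 5 to the lower right and Rab15 to the upper left.

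At the transcript level, 76 of 119 transcripts of the Rab genes were tested. In VLDLR_KO against WT 4 were called (5.26%, beside 3.33% of all transcripts tested). These were Rab6b NM_173781.4 and Rab8b NM_173413.3 (-0.45, edgeR adjusted p = 0.00301), which were lower, and Rab32 NM_026405.3 (0.87, edgeR adjusted p = 0.0291) and Rab3d NM_001324531.1 (0.34, edgeR adjusted p = 0.0276), which were higher.

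Genes that act on Rab proteins were examined as lists. Of 39 Rab exchange factors tested, mostly DENN-domain proteins, 4 were higher and 0 lower in VLDLR_KO than in WT (10.3%, beside 16.8% of all genes; median log2 fold change 0.03, beside 0.02). Dennd3, an activator of Rab12, rose from 0.256 ± 0.267 CPM in WT to 3.81 ± 0.991 in VLDLR_KO (3.94, SE 0.57, edgeR adjusted p = 2.57e-04). Dennd5b, which is also on the list of Rab6 partners, rose from 0.940 ± 0.481 to 2.05 ± 1.24 CPM (1.46, SE 0.29, edgeR adjusted p = 0.00322). Dennd4a (0.47, adjusted p = 0.0458) and Als2cl (0.39, adjusted p = 0.0129) were the others. Within forms the changes were 5.66 before B and 2.79 after B for Dennd3, 1.39 and 1.40 for Dennd5b, 0.23 and 0.64 for Dennd4a, and 0.24 and 0.52 for Als2cl.

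GTPase activators gave 4 higher and 4 lower of 36 tested (22.2%, beside 16.8% of all genes; median 0.00). Usp6nl, also called RN-tre, which acts on Rab5, fell from 37.0 ± 4.35 CPM in WT to 10.7 ± 3.76 in VLDLR_KO (-1.87, SE 0.17, edgeR adjusted p = 1.92e-06). Tbc1d2, a GTPase activator for Rab7, rose from 40.8 ± 12.4 to 86.5 ± 26.5 CPM (1.29, SE 0.15, edgeR adjusted p = 3.12e-05). Tbc1d16, which acts on Rab4a, rose by 0.92 (edgeR adjusted p = 9.43e-04) and Tbc1d4, known from glucose transporter traffic, by 0.45 (edgeR adjusted p = 0.0370). Rab3gap2, a subunit of the complex acting on Rab3 and Rab18, fell by 0.58 (edgeR adjusted p = 0.0171). Before and after B the changes were -2.22 and -1.62 for Usp6nl, 1.201 and 1.31 for Tbc1d2, 0.98 and 0.86 for Tbc1d16, 0.56 and 0.32 for Tbc1d4, and -0.91 and -0.37 for Rab3gap2.

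Of 9 prenylation and recycling genes, 1 was lower (11.1%, beside 16.8% of all genes), Gdi2, a GDP dissociation inhibitor (741 ± 46.1 CPM in WT, 633 ± 86.5 in VLDLR_KO; -0.27, edgeR adjusted p = 0.0150). Effectors gave 3 higher and 3 lower of 46 tested (13.0%, beside 16.8% of all genes; median 0.01). Rims2, a Rab3 effector known from synapses, rose most, from 1.26 ± 0.786 CPM in WT to 32.2 ± 35.1 in VLDLR_KO (4.76, SE 0.31, edgeR adjusted p = 1.03e-07). The SD there exceeds the mean, so the VLDLR_KO libraries differ widely among themselves. Micall2 and Micall1, Rab8-family effectors, fell by 0.50 and 0.39 (edgeR adjusted p = 0.0164 and 0.0262), and Vps16, a tethering complex subunit that serves Rab7, rose by 0.30 (adjusted p = 0.0140). The kinase Lrrk1 rose by 0.29 (adjusted p = 0.0434), and Vps11, of the same complexes as Vps16, fell by 0.22 (adjusted p = 0.0205). Before and after B the changes were 5.32 and 3.69 for Rims2, -0.89 and -0.09 for Micall2, and -0.51 and -0.31 for Micall1.

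Among 15 Rab6 partners, 1 was higher and 1 lower (13.3%, beside 16.8% of all genes; median -0.12). These were Dennd5b and the GTPase activator Rabgap1 (-0.36, edgeR adjusted p = 0.0370). In ROBO4_KO against WT no exchange factor, activator, prenylation gene or Rab6 partner was called by edgeR, with 3, 0, 0 and 1 of them at an unadjusted p under 0.05. Of the effectors 1 was called in that comparison (2.17%, beside 0.643% of all genes), Vps11, which was also lower in VLDLR_KO (108 ± 12.2 CPM in WT, 85.3 ± 13.9 in ROBO4_KO; -0.28, edgeR adjusted p = 0.0413).

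Neighbours were counted for the called Rab genes with a log2 fold change of at least 1 in size. Of 12 genes tested within 1 Mb of Rab6b, 1 was called in VLDLR_KO against WT (8.33%, beside 16.8% of all genes), Acad11 (-0.34, edgeR adjusted p = 0.0105). Of 10 near Rab39, 1 was called, Dnaja4 (-2.81, edgeR adjusted p = 9.60e-04). Near Rab37 10 of 42 were called (23.8%, beside the same 16.8%), 5 in each direction. Cd300lf, Armc7, Sumo2, Gga3 and Unk were higher, and Slc9a3r1, Tmem104, Cd300ld, Gprc5c and Caskin2 were lower. In ROBO4_KO against WT none of 26 genes near Rab4a was called by edgeR, and 0 had an unadjusted p under 0.05.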

How the data were processed

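Per the labels, the 15 libraries were SMARTER mRNA-Seq preparations read from both ends on a BGISEQ-500. The submitters' processing notes name HISAT, Bowtie2 and the build GRCm38.p6, and the quantifier is not given in the sources used here. The deposited gene and transcript tables hold estimated counts made by the authors, 92.6% of them whole at gene level, not normalized. They also hold FPKM made by the authors, a unit inferred from the values, and the authors' log2 fold changes and DESeq2 q-values between lettered sets of libraries, quoted only where named. The deposited averages of these sets, another kind of value, match the means of 1 genotype and code form within 0.01 for all 16886 genes. A further deposited gene table was not used.

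Rounded counts were tested with edgeR 4.0.16 under R 4.3.3 (filterByExpr by genotype with a minimum count of 10, TMM scaling, quasi-likelihood F tests, genotype plus code form). A second model with 1 coefficient per genotype and form gave the changes within forms and their differences. SE is the log2 fold change divided by the square root of F. CPM use TMM-scaled totals. DESeq2 1.42.0 and limma 3.58.1 on log2(FPKM + 0.1), for genes with a mean FPKM of at least 0.5, were alternatives, and the scripts were tested on simulated data. Single values were compared by exact permutation. Replicates are numbered in accession order. No libraries were duplicates: chi-square over degrees of freedom ran from 5.86 to 256 within groups. Reads carry no molecular identifiers, so count intervals cover counting error only.

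The named Rab genes were those called in any comparison, their paralogs, the 6 most abundant and those differing between forms. Of each related list up to 5 called genes were named, the largest by log2 fold change, except that all called effectors were named. Of neighbours those called were named. Members and lists were chosen with earlier results of these data known. The protein sequences planned for the Rab6 pair were not used here, and promoter stretches were shown in their place, a choice made after the results were seen.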

Additional observations from a re-analysis of the deposited data

Results flagged for a closer look

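Within genotypes, 7 of 81 groups of 5 libraries examined (27 Rab genes in 3 genotypes) held a value set far from the others, where chance gives about 1 in 20. Rab4b reached 67.0 CPM and Rab8a 141 CPM in VLDLR_KO 2, against 34.7 to 37.9 and 104 to 111 CPM in the other libraries of that genotype. Rab15 was 1.17 CPM in VLDLR_KO 4 (0.159 to 0.416 in the others), and Rab6b 0.272 CPM in VLDLR_KO 1 (0 to 0.0529). Rab38 was 2.36 CPM in ROBO4_KO 5 (0.573 to 0.959), Rab39 0.833 CPM in ROBO4_KO 3 (1.79 to 2.17), and Rab8a 119.8 CPM in WT 5 (104 to 107).

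For 6 Rab genes the VLDLR_KO against WT change differed between the code forms by the interaction test in edgeR. Digit before B minus digit after B, the differences in log2 fold change were 1.26 for Rab20 (adjusted p = 0.0165), 0.86 for Rab34 (0.0459), 0.84 for Rab40c (0.0220), 0.73 for Rab9 (0.0349), 0.69 for Rab11b (0.0143) and -3.56 for Rab15 (0.0220).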

How the results depend on the processing

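No called Rab gene changed sign under any alternative run. Among the named Rab genes not called in VLDLR_KO against WT, the sign changed for Rab38 without the code form in the model (0.13, as reported -0.38). With upper-quartile scaling it changed for Rab1a (-0.013) and Rab7 (-0.010), and in limma for Rab1a (-0.00058). Without WT 1 and WT 2 it changed for Rab1a (-0.049) and Rab34 (0.14). Before B alone it changed for Rab14 (-0.055), Rab1a (-0.12), Rab34 (0.38) and Rab9 (0.17). After B alone it changed for Rab11b (-0.14), Rab20 (-0.38), Rab38 (0.19), Rab3a (-0.28), Rab40c (-0.18), Rab4b (-0.028) and Rab7 (-0.084). The other tested Rab genes were not followed through these alternatives. Some of them had opposite signs in the 2 forms, such as Rab29 (0.38 before B, -0.25 after B). Without the code form in the model, calls were 1086 genes and 5 Rab genes in VLDLR_KO against WT (1957 and 9 as reported; all 5 also called there), 39 and 0 in ROBO4_KO against WT (75 and 1; 440 genes and 1 Rab gene at an unadjusted p under 0.05 in edgeR), 888 and 3 in VLDLR_KO against ROBO4_KO (1868 and 7), and 646 transcripts (1001). DESeq2 called 172 genes in ROBO4_KO against WT and 12 Rab genes in VLDLR_KO against ROBO4_KO. In ROBO4_KO against WT 44 genes were called without WT 1 and WT 2, 20 genes and 0 Rab genes (3 at an unadjusted p under 0.05 in edgeR) in libraries with the digit before B, and 188 genes and 2 Rab genes (Rab20, Rab4a) with the digit after B. The Rab6b share was lower by 14.0 and 10.1 points within forms (-14.0 and -10.1, exact permutation p = 0.2 each), where no smaller p is possible.

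Upper-quartile scaling called 10 Rab genes in VLDLR_KO against ROBO4_KO. Leaving out each library in turn gave 7 to 10 Rab calls in VLDLR_KO against WT, 1 to 1 in ROBO4_KO against WT and 6 to 12 in VLDLR_KO against ROBO4_KO (12 without VLDLR_KO 4), among 1455 to 2269, 55 to 125 (125 without VLDLR_KO 2) and 1298 to 2041 genes. Genes differing between forms numbered 1777, and 598 to 5090 with 1 library left out (660 without WT 1, 598 without WT 2, 1083 and 946 without WT 3 and 4, and 5090, 1152, 1104 and 1132 without VLDLR_KO 1, 2, 3 and 5). Without VLDLR_KO 1 or 2, or WT 1 or 2, 1 library of that genotype and form is left, assumed to vary like the others. That fit without WT 1 and WT 2 could not be made. Whether digits of the codes pair libraries could not be decided. Correlations of deviations between genotypes ran from -0.532 to 0.411 for the same digit and from -0.617 to 0.683 for other digits. Where a genotype has 2 libraries in a form, their deviations mirror each other, which fixes the correlations in pairs of opposite sign. With code form and digit as a replicate block, 1517, 51 and 1141 genes were called in the 3 comparisons, with 8, 1 and 5 Rab genes. Single calls also ended, in edgeR adjusted p, for Rab3d in VLDLR_KO against WT (0.0833) and Rab5a and Rab39 in VLDLR_KO against ROBO4_KO (0.0998 and 0.284) before B alone, for Rab21 after B alone (0.153) and in limma (0.0578), and for Rab39 and Rab20 in VLDLR_KO against ROBO4_KO with the block (0.0558 and 0.159). Causes were not tested. Rab genes near 1 CPM or below (Rab15, Rab37, Rab38, Rab39) have few counts.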

Other observations

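Chosen after the calls were seen: of the 9 Rab genes called in VLDLR_KO against WT, 4 lie on chromosome 9 (Rab39, Rab3d, Rab6b and Rab8b), where 6 Rab genes were tested. On that chromosome 132 of 647 genes tested were called (20.4%). Rab3d and Rab39 were higher and Rab6b and Rab8b lower. On chromosome 10 both Rab21, which was lower, and Rab32, which was higher, were called among 3 tested. Of all genes tested on that chromosome 67 of 563 were called (11.9%).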
